A study of Mus musculus with 22 samples.

Results

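Glu5 is a class of glutamatergic neuron in the annotation that the authors deposited with their single-nucleus RNA-seq (snRNA-seq) of the mouse hypothalamus. Its members were the nuclei whose annotated cell type is Glu5, which gave 1296 nuclei of 24965 in all (5.19%) and of 19416 annotated as neurons (6.67%). The nuclei came from 10 male ob/ob mice, which lack leptin and are obese and diabetic, of 11 weeks of age, housed singly and fed Purina chow. Each mouse received 1 intracerebroventricular (icv) injection of 3 µg recombinant human fibroblast growth factor 1 (FGF1) or of the PBS vehicle, and vehicle mice were pair-fed to the intake of FGF1 mice. Hypothalamic punches of 3 FGF1 and 3 vehicle mice were taken after 24 h (Day 1) and those of 2 FGF1 and 2 vehicle mice on Day 5, with 1 mouse per library. All groups lacked leptin.

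Glutamatergic neurons load their vesicles with glutamate through vesicular transporters, and Slc17a6 encodes the one most hypothalamic neurons use. The transcription factors Foxb1, Lhx1 and Sim1 take part in building the mammillary and neighbouring posterior regions of the hypothalamus, and Sim1 also specifies paraventricular neurons. FGF1 binds the FGF receptors, which signal through the MAPK cascade, and a central dose lowers food intake and then blood glucose in diabetic rodents.

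Glu5 nuclei numbered 170, 231 and 78 in FGF1 mice 1, 2 and 3 of Day 1, and 10, 47 and 47 in vehicle mice 1, 2 and 3. On Day 5 they numbered 95 and 375 in FGF1 mice 37 and 45, and 232 and 11 in vehicle mice 28 and 38. Vehicle 1 and vehicle 38 were thus the thinnest samples, with 40175 and 46843 unique molecular identifiers (UMIs) from Glu5 against 172780 to 1064296 in the other 8 mice. Levels are given as CPM, a gene's UMIs divided by all Glu5 UMIs of the mouse and scaled to 1000000. A count of 0 in vehicle 1 or vehicle 38 allows up to 74.7 or 64.0 CPM, a limit that covers counting error only. FGF1 mouse 1 stood apart, with a summed level of 8189 CPM for 31 genes of oxidative phosphorylation against 2492 to 4496 in the others, and 19350 CPM for ribosomal protein transcripts against 7551 to 11856, so results that rest on it are also given without it. Of 24645 barcode sequences, 318 occurred in more than 1 mouse, which touched 28 Glu5 nuclei, and none recurred as Glu5.

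Pooled over mice, the nuclei carried the glutamatergic marker that the label implies, with vehicle 1 as an exception given below. Slc17a6 (chromosome 7, 51622006 to 51671119, + strand, GRCm38) stood at 168 ± 47.1 CPM (mean ± SD, n = 10 mice), the third highest mean among 15 neuron types with 100 or more nuclei. Its level ran from 85.4 in vehicle 38 to 219.8 in FGF1 mouse 2, beside means of 199 in Glu4 neurons, 147 in n29 neurons (a class labelled by Nr5a1 and Adcyap1) and 24.1 in Agrp neurons. With every nucleus thinned to 1 common depth below that of the shallowest Glu5 nucleus, 22.5% of Glu5 nuclei had a Slc17a6 UMI, against 3.38% of astrocyte nuclei, which should lack it (41.3% and 9.69% unthinned, at median depths of 2537.5 and 2693.5 UMIs). Gad2, an enzyme of GABA synthesis, was found in 5.79% of thinned Glu5 nuclei pooled over mice, against 9.56% of astrocyte nuclei. By mouse its thinned share in Glu5 on Day 1 was 2.35%, 4.76% and 2.56% in FGF1 mice 1, 2 and 3 and 0%, 8.51% and 10.6% in vehicle mice 1, 2 and 3, and unthinned it was 8.24%, 10.4% and 2.56% and 60%, 27.7% and 21.3%. On Day 5 the thinned share was 8.42% and 7.73% in FGF1 mice 37 and 45 and 5.17% and 0% in vehicle mice 28 and 38. In vehicle 1 the markers went against the label before thinning, where Gad2 stood at 149 CPM with a UMI in 6 of 10 nuclei and Slc17a6 at 99.6 CPM with a UMI in 3 of 10. Thinned, 0 of the 10 had a Gad2 UMI and 2 a Slc17a6 UMI. In vehicle 38, before thinning, a Slc17a6 UMI was found in 3 of 11 nuclei and a Gad2 UMI in 1. The Gad2 level also differed between the clusters described next. Glu5 nuclei scarcely held Slc17a7, with 1 UMI, or Slc17a8, with 3 UMIs. Peptide transcripts that mark other neuron types were also read before thinning. An Agrp UMI was found in 48 of 170, 27 of 231 and 13 of 78 nuclei of FGF1 mice 1, 2 and 3. In vehicle mice 1, 2 and 3 it was found in 1 of 10, 20 of 47 and 10 of 47. An Oxt UMI was found in 37 of 170 nuclei of FGF1 mouse 1 and 10 of 232 of vehicle 28. Each other mouse had it in at most 1 nucleus. The source of these transcripts was not tested.

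Sim1 (chromosome 10, 50894754 to 50989152, + strand) was read at 125 ± 30.7 CPM (n = 10), from 74.7 in vehicle 1 to 174 in FGF1 mouse 3, where the means were 15.3 in Glu4, 8.10 in Glu6, 18.0 in n29 and 19.5 in Agrp neurons. Oxytocin neurons, in which Sim1 is known to act, were higher at 482. A Sim1 UMI was found in 15.3% of thinned Glu5 nuclei and in 1.17% to 1.72% of nuclei of those 4 types and of astrocytes.

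Foxb1 gives its name, with Grm7 or Nxph1, to the study's Glu5 subtypes. Foxb1 averaged 15.2 ± 16.2 CPM, was above 0 in 8 of 10 mice, and was at 0 in vehicle 1 and vehicle 38. The transcript B230323A14Rik overlaps it on the opposite strand, and reads of the overlap cannot be told apart unless strand was used in counting. B230323A14Rik was found in 35.7% of thinned Glu5 nuclei, 12.9% of astrocyte nuclei and 0.860% to 1.81% of Glu4, Glu6, n29 and Agrp nuclei. By mouse its thinned share in Glu5 was 29.4%, 45.5% and 33.3% in FGF1 mice 1, 2 and 3 and 0%, 8.51% and 48.9% in vehicle mice 1, 2 and 3 of Day 1, and 25.3% and 38.4% in FGF1 mice 37 and 45 and 36.6% and 18.2% in vehicle mice 28 and 38 of Day 5. The library of vehicle 1 thus held no UMI of Foxb1, B230323A14Rik, Lhx1 or Nkx2-1 in its 10 nuclei labelled Glu5, though 3 of the 10 had a Sim1 UMI.

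Lhx1 averaged 23.7 ± 16.1 and Nkx2-1 13.8 ± 8.83 CPM, the highest means among the 15 types. Both were at 0 in vehicle 1 and vehicle 38 and above 0 in the other 8 mice. Of the markers of thalamic and neighbouring glutamatergic neurons, Tcf7l2 was at 16.2 against 397 in Glu4 and Foxp2 at 113 against 822. Foxp2 was low only by that comparison, as its mean lay above those of Lhx1 and Nkx2-1. Barhl1, Foxa1, Irx3 and Tbr1 had no UMI in any Glu5 nucleus. Grm7, a presynaptic metabotropic glutamate receptor, averaged 2487 ± 650.3 against 2642 in Glu4, and Nxph1, a secreted neurexin ligand, averaged 483 ± 145 against 1939 in Glu6. The annotation used these nuclei's own genes, so these levels describe the class and are not tested.

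The genes whose Glu5 mean most exceeded that of any of 14 other neuron types were ranked among 1904 genes of at least 50 CPM in each of the 10 mice. Sncaip, encoding the synuclein partner synphilin, led with 132 ± 54.5 CPM, 2.26 times the next type. Gm13629 followed at 195 ± 70.2 (2.16 times), then Unc13c, a vesicle-priming protein, at 462 ± 152 (1.98 times), and Dgkb, a diacylglycerol kinase, at 3181 ± 1490.0 (1.97 times). Ratios fell to 1.34 at Inadl, the last of 15, and the others were Frmd5, Fam19a1, Tmem196, Cdh11, Fat3, Ank1, Arpp21, Ryr3, Pcp4 and 2900055J20Rik. Sncaip and Frmd5 exceeded the next type's mean in all 10 mice, and the other genes did not.

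**Figure D1:**
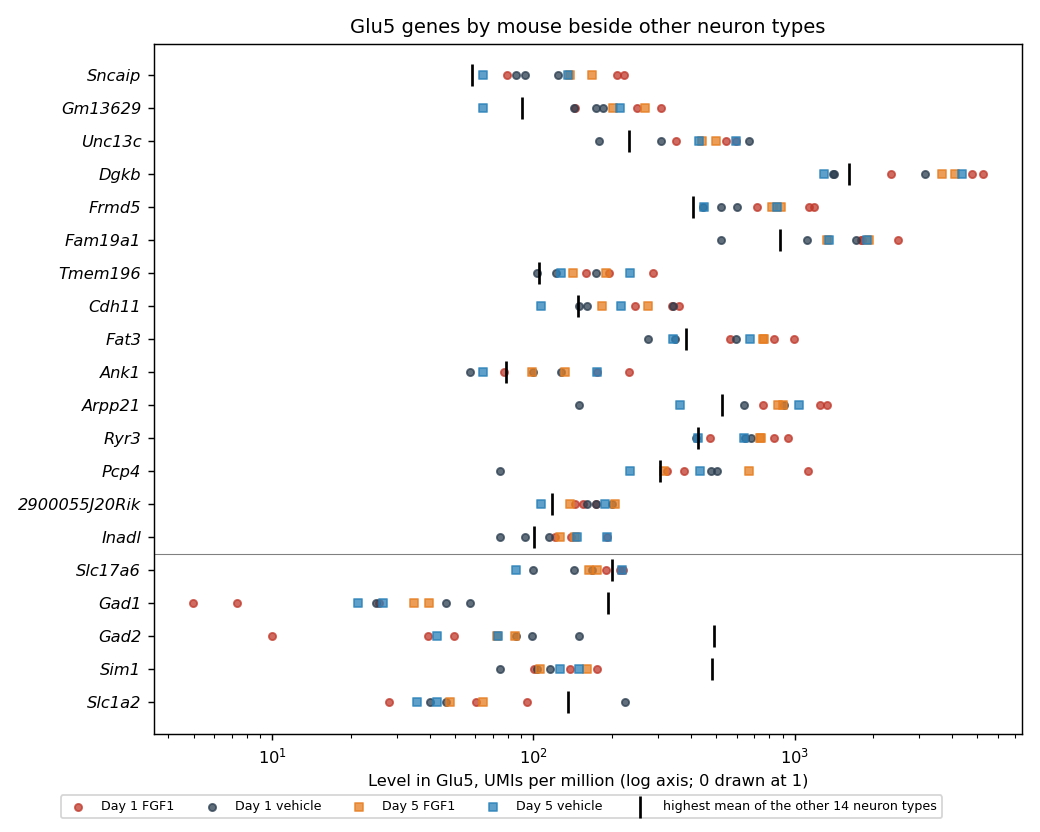
Level of each gene in Glu5 nuclei of each mouse (points, CPM on a log axis), coloured by group, with the highest mean among 14 other neuron types as a black bar. Sncaip lies above its bar in all 10 mice, and Sim1 lies below its bar, which Oxt neurons set at 482.

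Glu5 nuclei were not uniform. Clustering them by their own variable genes, centred within each mouse, gave 4 groups of 576, 267, 250 and 203 nuclei. Slc17a6 was read in all of them, at 153, 279.8, 243 and 193 CPM, and so was Sim1, at 103, 143, 175 and 140.2. Grm7 stood at 4916 in cluster 3, 3677 in cluster 2, 2580.2 in cluster 1 and 514 in cluster 4, whereas Nxph1 stood at 1793 in cluster 4 and 406, 129.8 and 41.4 in clusters 1, 2 and 3. Grm7 and Nxph1, both in the study's subtype names, were thus highest in different clusters.

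Cluster 4 was led by Dkk2, a Wnt antagonist, at 184 CPM against at most 17.9 elsewhere, and by the transcription factor Ebf3 at 133, with Npy1r, Pde11a, Stxbp6 and Synpr. Cluster 3 was led by Tmem144, Sall3, Col19a1, Adamtsl1 and Onecut2, and it had the highest Cartpt (305). Cluster 2 was led by Gpr83, Gpc3 and Fbn2, and Foxb1 was highest there at 37.1. Cluster 1, of deeper nuclei (median 3536 UMIs against 2051 to 2303), was led by Sst, Nrxn3 and Cadps2. Gad2 stood there at 92.3 CPM against 13.5, 16.9 and 55.0 in clusters 2, 3 and 4, and a Gad2 UMI was found in 26.9% of its nuclei against 3.00%, 3.20% and 9.36% in the others. These genes define the clusters and are given as a description.

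**Figure D2:**
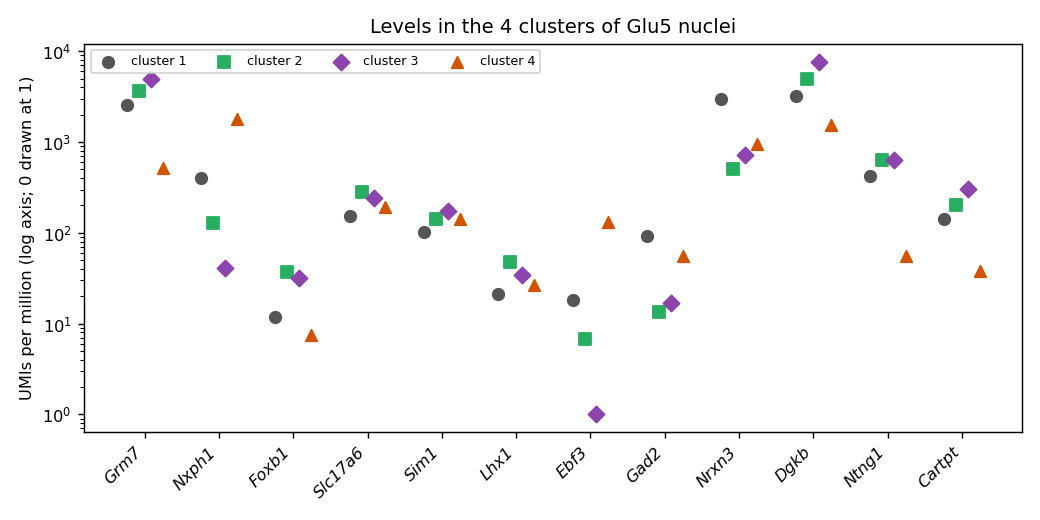
Levels of 12 genes in the summed nuclei of each of the 4 clusters (CPM on a log axis, with a 0 drawn at 1). Grm7 and Nxph1 run in opposite order across clusters 3 and 4, and Slc17a6 and Sim1 are read in all 4.

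The share of Glu5 among a mouse's nuclei overlapped between FGF1 and vehicle mice on both days, in designs too small for any exact permutation p below 0.05. On Day 1 it was 3.42%, 9.12% and 7.00% in FGF1 mice 1, 2 and 3, and 0.806%, 2.08% and 4.35% in vehicle mice 1, 2 and 3. The means were 6.51% ± 2.88 and 2.41% ± 1.79 (SD, n = 3 each), with overlapping groups and an exact two-sided permutation p of 0.2, where the design allows no p below 0.1. The metadata give a batch number, of unstated meaning, shared by 1 FGF1 and 1 vehicle mouse. Within batches the share was 9.12% in FGF1 mouse 2 and 0.806% in vehicle 1, 7.00% in FGF1 mouse 3 and 2.08% in vehicle 2, and 3.42% in FGF1 mouse 1 and 4.35% in vehicle 3, where the direction was opposite. On Day 5 the shares were 4.28% and 6.50% in FGF1 mice 37 and 45 against 7.29% and 1.86% in vehicle mice 28 and 38, with an exact two-sided permutation p of 1.0, where no p below 0.333 was possible. Mice 37 and 28 shared a batch and so did 45 and 38, and the direction was opposite in these pairs.

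**Figure D3:**
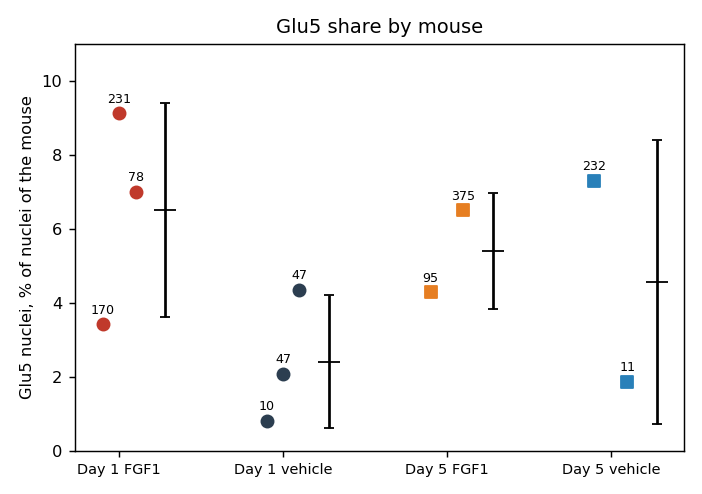
Glu5 nuclei as a percent of the nuclei of each mouse (points), with mean and SD by group. FGF1 mice of Day 1 lie between 3.42% and 9.12% and overlap vehicle mice, which reach 4.35%, and the 2 vehicle mice of Day 5 lie outside the range of the 2 FGF1 mice.

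To ask which transcripts changed in Glu5 neurons a day after the injection, counts were summed per mouse and tested in 3783 genes. None passed edgeR's quasi-likelihood test at an adjusted p below 0.05 (percent called 0.0), 172 genes (4.55%; 2.72% higher and 1.82% lower) had an unadjusted p below 0.05, and DESeq2 called 1, Zmym1. Without vehicle 1, edgeR called none of 4578 genes (164 at an unadjusted p below 0.05). FGF1 mice lay above all vehicle mice in 216 genes (5.71%) and below all of them in 209 (5.52%). The genes named next are those of lowest p.

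The gene of lowest p was Zmym1, a zinc finger protein of the MYM type. Zmym1 was at 333, 106 and 244 CPM in FGF1 mice 1, 2 and 3, and at 0, 40.2 and 23.2 in vehicle mice 1, 2 and 3. The log2 fold change was 3.10 ± 0.62 (SE; edgeR adjusted p = 0.873). The 0 in vehicle 1 allows up to 74.7 CPM, which is still below the lowest FGF1 mouse. In n29 neurons of the same mice Zmym1 was at 598, 239.9 and 420.4 against 63.6, 59.2 and 33.3, a log2 fold change of 2.99 ± 0.36 (edgeR adjusted p = 0.0135). In unmapped neurons it was 2.65 ± 0.36 (edgeR adjusted p = 0.106) and in Agrp neurons 1.77 ± 0.63 (edgeR adjusted p = 0.318). On Day 5 Zmym1 in Glu5 overlapped between groups, at 163 and 91.1 after FGF1 and 93.1 and 128 after vehicle.

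Ntng1, Cartpt, Pde4b and Lhfp followed in the same direction. Ntng1, a netrin-family adhesion protein of axons, was at 321, 516 and 563 after FGF1 and 124, 201 and 232 after vehicle (log2 fold change 1.31 ± 0.31). Cartpt, the CART peptide precursor, was at 352, 147 and 159 against 49.8, 68.8 and 57.9 (1.93 ± 0.45, and 1.37 without FGF1 mouse 1, where it was highest). Pde4b, a cAMP phosphodiesterase, was at 1165, 1720.3 and 1769 against 572, 516 and 938 (1.25 ± 0.30), and Lhfp at 109, 126 and 139.5 against 24.9, 57.4 and 34.7 (1.59 ± 0.37). The groups did not overlap, and each had an edgeR adjusted p of 0.873.

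Genes of lowest p in the other direction were Zkscan16, 4930555F03Rik, Megf9, Cep112 and Sergef. Zkscan16, a zinc finger gene, was at 37.3, 52.8 and 29.9 after FGF1 and 99.6, 109 and 133 after vehicle (log2 fold change -1.40 ± 0.35). The long noncoding RNA 4930555F03Rik was at 214, 104 and 164 against 797, 511 and 301 (-1.58 ± 0.40), highest in the 10 nuclei of vehicle 1. Megf9, Cep112 and Sergef had log2 fold changes of -1.28 ± 0.33, -1.49 ± 0.39 and -1.33 ± 0.35. All 5 had an edgeR adjusted p of 0.873 and did not pass. Of these 10 genes Lhfp, 4930555F03Rik, Cep112 and Sergef overlap other genes on their strand, and Zmym1 and Ntng1 overlap genes on the opposite strand, so that reads could be shared.

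In n29 neurons of these mice Zmym1 and Zkscan16 were called and the other 8 of these 10 genes were not. Over all genes tested in n29 neurons, 10 of 8407 were called. Zkscan16 had a log2 fold change there of -1.78 ± 0.31 (edgeR adjusted p = 0.0476), and in unmapped neurons of -0.86 ± 0.26 (edgeR adjusted p = 0.629). The n29 fold changes of the others were 0.92 for Pde4b, 0.69 for Cartpt, 0.18 for Ntng1, -0.15 for Lhfp, -0.81 for Megf9, -0.60 for 4930555F03Rik, -0.30 for Cep112 and -0.19 for Sergef. In unmapped neurons no gene of 13681 tested was called, so the lack of calls there says nothing particular about these 10.

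**Figure D4:**
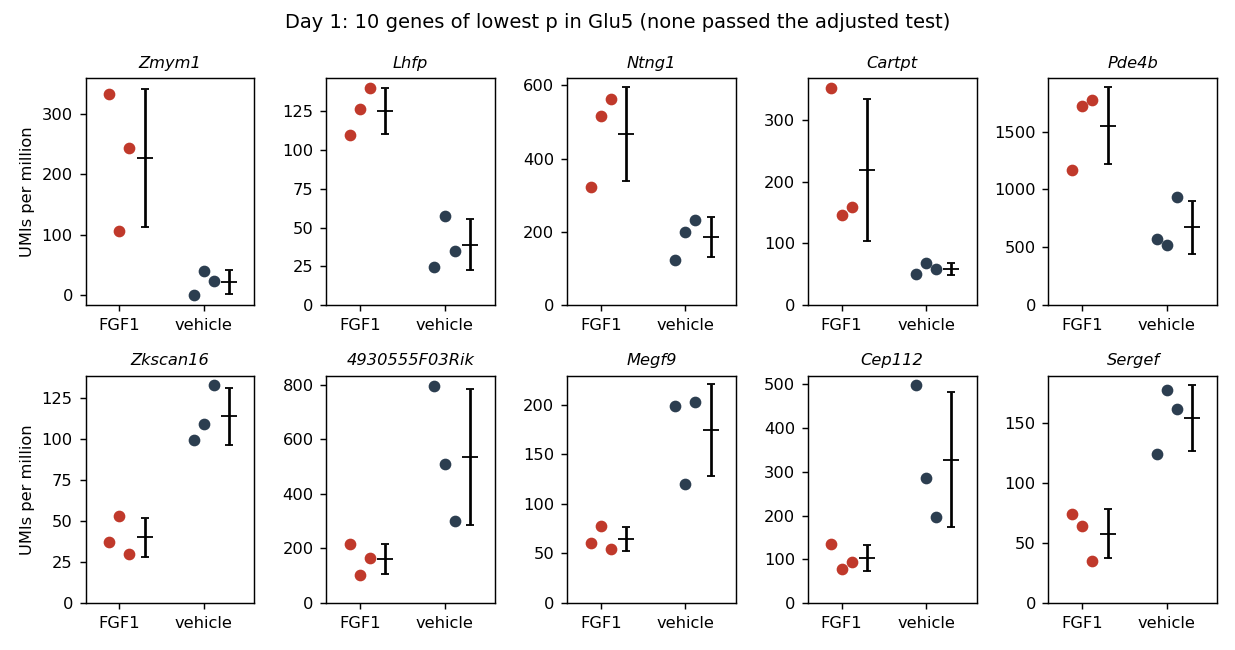
The 5 genes of lowest p in each direction on Day 1, as CPM in each FGF1 and vehicle mouse (points), with mean and SD. Zmym1 reaches 333 in FGF1 mice and at most 40.2 in vehicle mice, and none of the 10 passed the adjusted test.

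Among genes of the FGF pathway, none was called. Of 23 FGF receptors, ligands and adaptors 6 were tested, 3 of them with a positive and 3 with a negative fold change, with a median of -0.01 against 0.03 over all genes tested. Fgfr2, an FGF receptor, was at 242, 292 and 449 after FGF1 and 448, 465 and 318 after vehicle, and the groups overlapped. Fgf13, an intracellular FGF that binds sodium channels, was at 510.2, 573 and 573 against 249, 235 and 515 (log2 fold change 0.75 ± 0.31, edgeR adjusted p = 0.963). Of 18 MAPK feedback genes 3 were tested, with a median of 0.03. Among them Spred1, an inhibitor of Ras signalling, was at 67.6, 74.7 and 84.7 against 49.8, 22.9 and 40.5 (1.1997 ± 0.40, edgeR adjusted p = 0.926). Of 22 immediate early genes 2 were tested, Homer1 and Bdnf (median 0.69), and the neurotrophin Bdnf was at 60.6, 83.5 and 54.8 against 24.9, 51.6 and 23.2 (1.00 ± 0.44, edgeR adjusted p = 0.963). The summed level of these 22 genes was 174 to 277 CPM in FGF1 mice and 127 to 149 in vehicle mice.

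Receptor, channel and adhesion genes gave no call either. The 5 metabotropic glutamate receptors tested had a median of 0.17, and Grm7 overlapped between groups, at 1908, 3688 and 3020.1 against 2016, 1537 and 2315. The 15 ionotropic glutamate receptors had a median of -0.16 (0 higher and 2 lower at an unadjusted p below 0.05), the 13 GABA receptors 0.17 (1 and 1), the 18 potassium channels -0.14 (0 and 1), and the 17 sodium, calcium and HCN channels 0.12 (1 and 0). Of 34 synaptic adhesion genes 26 had a positive and 8 a negative fold change, with a median of 0.21 (4 higher and 1 lower at an unadjusted p below 0.05). Of 23 axon guidance genes 17 had a positive and 6 a negative one, with a median of 0.41 (5 and 0). Robo2, a Slit receptor, was at 692, 1081 and 1032 against 523, 309.7 and 538 (1.13 ± 0.30). Kcnc2, a fast potassium channel, was at 179, 180.2 and 119.6 against 423, 321 and 289 (-0.97 ± 0.28, edgeR adjusted p = 0.909).

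Peptide, hormone and stress genes were likewise below the threshold. Of 11 neuropeptide genes tested 7 had a positive and 4 a negative fold change (median 0.20), and Adcyap1, which encodes PACAP, was at 67.6, 71.8 and 59.8 against 0, 34.4 and 17.4 (log2 fold change 1.62 ± 0.52, edgeR adjusted p = 0.926). Sst was at 81.5, 30.8 and 24.9 against 896, 189 and 75.2, and 36 UMIs of vehicle 1 came from 1 nucleus. The 5 glucocorticoid and stress genes had a median of 0.40, and the metallothionein Mt2 was at 697, 245 and 274 against 149, 126 and 127 (1.72 ± 0.45, edgeR adjusted p = 0.873) and Mt1 at 1398, 476 and 344 against 249, 379 and 203. Both were highest in FGF1 mouse 1, and without it their log2 fold changes were 1.05 and 0.63. The 10 receptors for hormones and feeding signals had a median of 0.17, the 7 heat shock and unfolded protein genes 0.30, the 6 clock genes 0.27, the 23 vesicle release genes 0.19 and the 27 oxidative phosphorylation genes 0.38, and none of these 5 lists had a gene at an unadjusted p below 0.05. The oxidative phosphorylation median rested on FGF1 mouse 1, where the list stood apart. With that mouse 23 of the 27 genes had a positive fold change, and without it 5 had a positive and 22 a negative one, 1 was called lower, and the median was -0.33 against -0.04 over all genes. FGF1 mouse 1 was set apart for its high level of this same list. The turn of this list was thus largely fixed in advance, and nothing is read from it. Without FGF1 mouse 1 the sign of the median also turned for the heat shock and unfolded protein genes (-0.22), the ionotropic glutamate receptors (0.01), the potassium channels (0.09), the MAPK feedback genes (-0.11) and the FGF genes (0.06).

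With all 6 mice, the identity genes and the markers of other cells did not pass the test on Day 1. Slc17a6 was at 214, 219.8 and 189 after FGF1 and 99.6, 143 and 168 after vehicle (log2 fold change 0.61 ± 0.29, edgeR adjusted p = 0.963), and Sim1 at 100.2, 138 and 174 against 74.7, 103 and 116. Gad2, the tested GABA gene, was at 39.6, 49.8 and 9.97 against 149, 86.0 and 98.4 (-1.36 ± 0.46, edgeR adjusted p = 0.929), and Nrxn3 at 1379, 1725 and 997 against 4281, 2168 and 1956 (-0.93 ± 0.34). Gpc5, on the astrocyte list but also read in neurons, was at 309.8, 243 and 249 against 1021, 419 and 521 (-1.12 ± 0.33), and with Slc1a2 gave that list a median of -0.67. The summed astrocyte list ran from 353 to 478 CPM in FGF1 mice and from 522 to 1394 in vehicle mice, and the tanycyte list, of which 1 gene was tested (-0.93), from 71.8 to 431 and from 174 to 402. The part of these cells in the results was not tested. The medians were 0.28 for 6 neuronal genes, 0.38 for 2 glutamatergic genes, 0.59 for 2 genes of the subtype names, -0.14 for 2 posterior factors and 0.04 for 3 markers of other neurons. No ependymal, oligodendrocyte, microglial or vascular gene was tested, and Fyn stood for the oligodendrocyte precursor list at -0.08. Of the genes that the study names in Agrp neurons 4 were tested (median 0.16), and of the glial response genes of earlier results 2 (median -0.86). Of these lists the median turned sign without FGF1 mouse 1 for the Agrp neuron genes (-0.28), the markers of other neurons (-0.78), the posterior factors (0.62) and the precursor gene (0.07). The tested gene of the tanycyte list, Nnat, which was also read in other neurons, was then called lower (-3.004, edgeR adjusted p = 0.000625), and the astrocyte median was -1.21.

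The make-up and the depth of the summed nuclei also moved with the groups on Day 1. Median depth per Glu5 nucleus was 1982, 2529 and 2310.5 UMIs in FGF1 mice 1, 2 and 3. It was 3590, 3240 and 3267 in vehicle mice 1, 2 and 3. The depth difference was not particular to Glu5. Over all nuclei the median was 2029, 2816 and 2577 UMIs in FGF1 mice 1, 2 and 3. In vehicle mice 1, 2 and 3 it was 3776, 3178.5 and 3189. Cluster 1 is the cluster of deeper nuclei, so its share and depth cannot be told apart. Cluster 1 held 100%, 57.4% and 48.9% of the nuclei of vehicle mice 1, 2 and 3, and 40%, 28.6% and 23.1% of FGF1 mice 1, 2 and 3. Its leading genes Sst and Nrxn3 are among those above, so these shares are not compared as a result. In a sum over all Glu5 nuclei, fewer nuclei of one cluster and less RNA per nucleus cannot be told apart. With the nuclei of cluster 1 alone, an alternative chosen after the data were seen, no gene of 2382 tested by edgeR was called (107 at an unadjusted p below 0.05). The log2 fold changes there were 3.47 for Zmym1, 2.38 for Cartpt, 1.05 for Ntng1, 0.98 for Pde4b, 1.66 for Mt2, -0.76 for Gad2, -0.23 for Nrxn3, -2.57 for Sst, -1.19 for Gpc5 and -1.35 for 4930555F03Rik. Without FGF1 mouse 1, 15 of 4011 genes were called by edgeR, 8 higher and 7 lower. The higher ones included Ntng1 (1.4999, adjusted p = 0.0291), Cntnap5c (1.52, adjusted p = 0.0291), Zmym1 (2.59, adjusted p = 0.039) and Pde4b (1.42, adjusted p = 0.0461). The lower ones were Nnat, Gm26917 (-3.37, adjusted p = 0.00341), Snhg20 (-3.01, adjusted p = 0.0157), Cox8a (-2.09, adjusted p = 0.0157), 4930555F03Rik (-1.86, adjusted p = 0.0375), Rnpc3 (-1.92, adjusted p = 0.039) and Cep112 (-1.72, adjusted p = 0.039).

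On Day 5, 26 of 8105 genes tested were called, all lower after FGF1 (percent called 0.321), and 459 (5.66%; 1.6% higher and 4.06% lower) had an unadjusted p below 0.05. The called genes included subunits of the respiratory chain, a ferritin chain, proteins of vesicles and noncoding RNAs. Vehicle mouse 28 held the highest level of the 4 mice in 25 of the 26 genes, and 18 of the 26 had 3 or fewer UMIs in vehicle 38. Without mouse 28 the vehicle arm was 1 mouse with 11 nuclei, assumed to vary like the FGF1 mice. Of the 20 genes then tested 14 had a negative and 6 a positive fold change and none was called, with Gm26917 at -3.12 (edgeR adjusted p = 0.167), Pgrmc1 at -1.21 and Ndufb2 at -1.46. Without vehicle 38 the vehicle arm was mouse 28 alone. All 26 then had a negative fold change, which the high levels of that mouse largely fixed in advance. With the metadata's batch number as a block, an alternative chosen after the data were seen, all 26 were lower and none was called (lowest edgeR adjusted p = 0.0856). DESeq2 called 1, Gm26917, and 1 fit over all 4 groups called none.

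The genes of lowest p were noncoding. Gm26917, a noncoding RNA on chromosome 17 that lies next to Gm42418 in a region where reads of ribosomal RNA collect, was at 15.99 and 10.3 after FGF1 and 198 and 128 after vehicle (log2 fold change -3.91 ± 0.39, edgeR adjusted p = 0.000102). Snhg20, a host gene of small nucleolar RNAs, was at 2.66 and 9.40 against 279 and 42.7 (-4.89 ± 0.53, edgeR adjusted p = 0.000156). In both genes each vehicle mouse lay above each FGF1 mouse, though Snhg20 in vehicle 38 rested on 2 UMIs. On Day 1 Gm26917 was at 154, 38.1 and 24.9 after FGF1 and 199, 614 and 232 after vehicle, without overlap, and it was not called.

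Nuclear genes of oxidative phosphorylation formed the one list with more than 1 call, 3 of 31 tested, beside 26 of 8105 over all genes (0.321%). Cox8a, a subunit of complex IV, was at 32.0 and 13.2 after FGF1 and 368 and 0 after vehicle (log2 fold change -3.89 ± 0.57, edgeR adjusted p = 0.00376), and the 0 in vehicle 38 allows up to 64.0 CPM, above both FGF1 mice. Cox5b was at 24.0 and 11.3 against 157 and 21.3 (-3.14 ± 0.48), and Cox6a1 at 34.6 and 16.9 against 187 and 21.3 (-2.81 ± 0.46). In these 3 genes of complex IV vehicle 28 was far above the FGF1 mice and vehicle 38 below or between them, so the groups overlapped. Ndufb2 of complex I, which was not on the list, was at 15.99 and 11.3 against 78.4 and 42.7 (-2.52 ± 0.43). It did not overlap, though it had 3 or fewer UMIs in vehicle 38. Over the 31 tested genes of the list 26 had a negative and 5 a positive fold change, with a median of -0.31 against 0.03 over all genes tested. Over all genes 3838 of 8105 had a negative one. The summed level of the list was 3331 and 2919 CPM in FGF1 mice 37 and 45. In vehicle mice 28 and 38 it was 4496 and 2882. Vehicle 38 thus lay below both FGF1 mice, and the lower list level after FGF1 rested on vehicle 28.

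The start regions of Cox8a, Cox5b and Cox6a1 are shown because these were the called subunits of complex IV, although their groups overlapped, and because promoters of respiratory genes often carry sites of the factor NRF1 and of the ETS family. The 300 bases are the RefSeq promoter windows on GRCm38.p6, 5′ to 3′ along each gene, at chr19:7217567-7217866 (- strand), chr1:36691237-36691536 (+ strand) and chr5:115348909-115349208 (- strand). Capitals mark matches, on either strand, of an NRF1 word (GCGC, any base, then TGCGC) or of the ETS word CCGGAAG.
Cox8a: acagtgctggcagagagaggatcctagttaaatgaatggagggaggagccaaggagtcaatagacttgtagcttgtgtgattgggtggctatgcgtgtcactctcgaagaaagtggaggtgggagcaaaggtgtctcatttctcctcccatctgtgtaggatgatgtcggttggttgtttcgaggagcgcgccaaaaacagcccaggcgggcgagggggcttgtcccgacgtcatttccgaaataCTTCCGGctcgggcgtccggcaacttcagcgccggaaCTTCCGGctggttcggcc
Cox5b: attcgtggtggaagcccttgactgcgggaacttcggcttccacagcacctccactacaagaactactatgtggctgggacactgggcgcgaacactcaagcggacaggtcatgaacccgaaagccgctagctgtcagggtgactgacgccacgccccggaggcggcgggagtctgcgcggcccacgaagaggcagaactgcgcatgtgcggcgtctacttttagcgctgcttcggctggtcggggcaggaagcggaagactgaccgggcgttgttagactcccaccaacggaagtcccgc
Cox6a1: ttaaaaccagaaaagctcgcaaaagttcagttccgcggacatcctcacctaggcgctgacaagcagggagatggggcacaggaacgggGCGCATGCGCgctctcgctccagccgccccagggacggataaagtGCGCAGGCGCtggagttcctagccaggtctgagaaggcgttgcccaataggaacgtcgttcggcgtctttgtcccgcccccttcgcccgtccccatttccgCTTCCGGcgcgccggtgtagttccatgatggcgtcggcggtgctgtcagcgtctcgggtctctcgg
Cox8a held 2 matches of the ETS word and Cox6a1 held 1, with 2 of the NRF1 word, whereas Cox5b held neither word, and neither did Ndufb2. The ETS word occurred in 5 of the 21 called genes that matched a RefSeq promoter (23.8%), in 20.3% of 6125 matched genes tested on Day 5 and in 8.86% of all 32851 promoters. The NRF1 word occurred in 4 of the 21 (19.0%), in 12.8% of those tested and in 4.60% of all promoters. The TATA box word TATAAA occurred in 2 of the 21 (9.52%), in 8.44% of those tested and in 13.6% of all promoters. A match says only that these letters are in this window.

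Other called genes act in iron handling, secretion and the synapse. Fth1, the ferritin heavy chain, was at 26.6 and 20.7 after FGF1 and 230.0 and 42.7 after vehicle (log2 fold change -3.09 ± 0.42), and Cisd1, an iron-sulfur protein of the outer mitochondrial membrane, at 7.99 and 15.03 against 105 and 42.7 (-2.87 ± 0.43). Rab3a, a GTPase of synaptic vesicles and the 1 called gene of 30 tested in vesicle release (median 0.05), was at 32.0 and 42.3 against 142 and 64.0 (-1.73 ± 0.35). The groups did not overlap in these genes, though each had 3 or fewer UMIs in vehicle 38. The vehicle mice differed more from each other than did the FGF1 mice.

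Nnat, an imprinted proteolipid gene, was at 93.3 and 67.7 after FGF1 and 271 and 149 after vehicle (log2 fold change -1.64 ± 0.31). It was the 1 called gene of 2 tested on the tanycyte list (median -0.96) and of 4 among the glial response genes (median 0.15). The summed tanycyte list ran from 112 to 141 CPM in FGF1 mice and from 192 to 308 in vehicle mice, and most of it was Nnat in each mouse. Nnat was also read in n29 neurons, at 91.0 and 114 after FGF1 and 687 and 370 after vehicle. Pgrmc1, a haem-binding membrane protein, was the 1 gene highest in vehicle 38, at 98.6 and 90.2 against 247 and 256 (-1.38 ± 0.28). Sst, the 1 called neuropeptide of 17 (median 0.05) and the 1 called gene of 6 markers of other neurons (median -0.57), was at 29.3 and 56.4 against 205 and 42.7. In vehicle 28, 77 of its 154 UMIs came from 1 nucleus. Its log2 fold change of -1.89 ± 0.39 turned to 0.26 without nuclei carrying markers of another class and to 0.38 without vehicle 28. The remaining called genes were Bmyc, Rabac1, Eif1, Gm42418, Rnpc3, 2210016L21Rik, Car11, Pcsk1n, Ly6h, Gm9774, Sncb, Mrps10, Edf1 and Ckb. Their log2 fold changes ran from -4.07 (Bmyc) to -1.74 (Ckb). Of all 26, 19 had both vehicle mice above both FGF1 mice (percent over all genes tested 15.1). The 26 were chosen by this same contrast, so nothing is read from that count. Snhg20, Ndufb2, Rabac1 and Rnpc3 overlap other genes on their strand.

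The 26 genes were also examined in other neurons of these mice, which share libraries with Glu5. In n29 neurons 24 were tested, 23 had a negative fold change and 5 were called lower (percent called lower 0.27 over all n29 genes), with a median of -2.07 against 0.01 over all genes, and in unmapped neurons 26 of 26 had a negative one and none was called (percent called 0.0), with a median of -2.02. In Agrp neurons 3 were tested, of which 2 had a negative fold change and 1 was called lower (percent called lower 0.0743 over all Agrp genes). Sst was the gene with a positive one in n29 neurons (0.23 ± 0.34) and in Agrp neurons (0.97 ± 0.80). Cox8a was at 34.1 and 17.9 against 300.3 and 43.0 in n29 neurons, so vehicle 28 was high there too. On Day 1, in other mice, 18 of the 26 were tested in Glu5. Of these 7 had a negative fold change, none was called, and the median was 0.24. Without FGF1 mouse 1, 17 of the 18 had a negative one and 5 were called lower (percent called lower 0.175 over all genes), with a median of -1.59 against -0.04 over all genes. That mouse was set apart for its high oxidative phosphorylation genes, some of which are among the 26. The change was thus partly fixed in advance, and nothing is read from it. FGF1 mouse 1 held the highest Day 1 level of Fth1, at 561, 32.2 and 19.9 after FGF1 and 99.6, 91.8 and 52.1 after vehicle, and of Cox8a, at 638, 51.3 and 39.9 after FGF1 and 249, 269.6 and 145 after vehicle. Beyond leaving a mouse out, the part of mouse 1 in the Day 1 result and of mouse 28 in the Day 5 result was not tested.

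**Figure D5:**
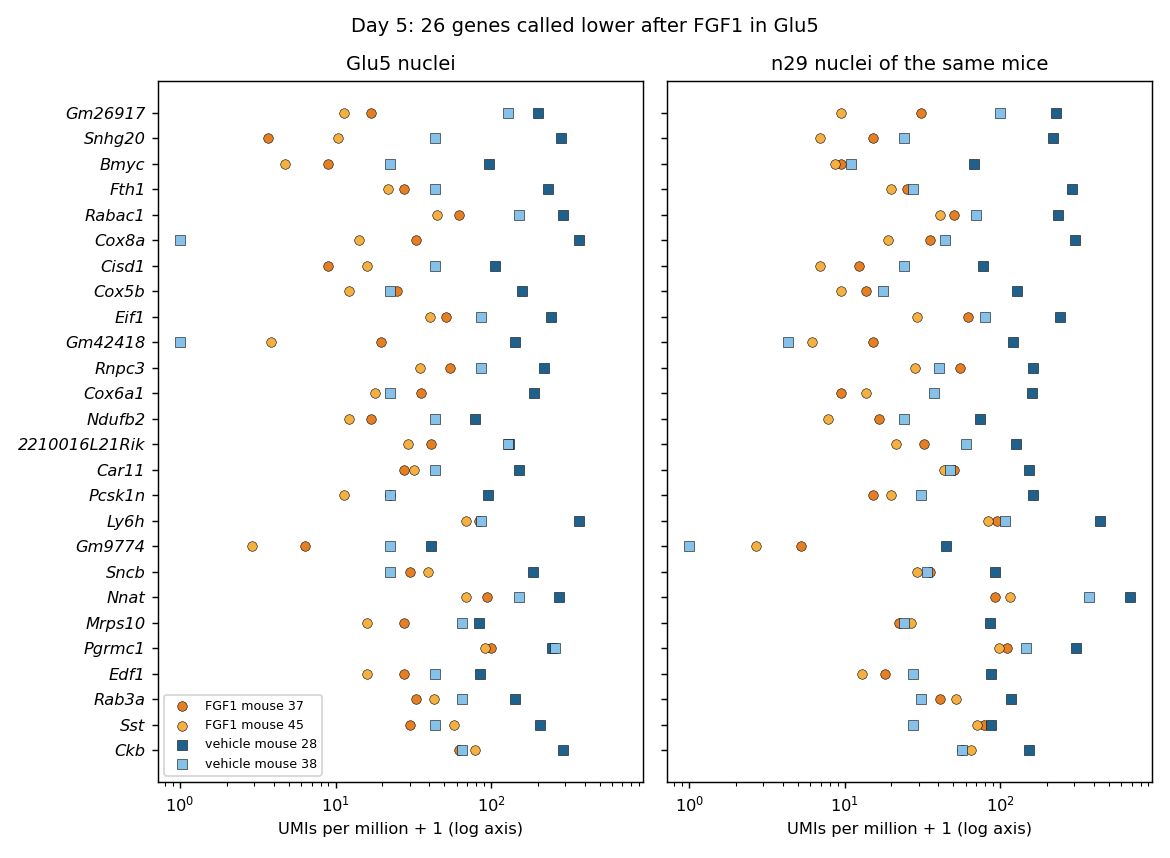
The 26 genes called lower on Day 5, as CPM plus 1 on a log axis in FGF1 mice 37 and 45 and vehicle mice 28 and 38, in Glu5 nuclei (left) and n29 nuclei of the same mice (right). Vehicle 28 is highest in 25 of the 26 genes in Glu5, and vehicle 38 lies at or below the higher FGF1 mouse in 7, such as Cox8a at 0.

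On Day 5 both FGF1 mice lay above both vehicle mice in 1599 genes (19.7%) and below both in 1224 (15.1%). With 2 mice a group such orders are common without any effect, so nothing is read from these counts. No gene was called higher on Day 5 by edgeR (130 had an unadjusted p below 0.05) or by DESeq2. The lowest p belonged to Nrbp2, a pseudokinase gene, at 56.0 and 65.8 after FGF1 and 17.3 and 21.3 after vehicle (log2 fold change 1.82 ± 0.44, edgeR adjusted p = 0.114). Rnf152, a ubiquitin ligase, followed at 42.6 and 63.9 against 15.95 and 21.3 (1.78 ± 0.46, edgeR adjusted p = 0.169), then D430042O09Rik, Dexi and Erdr1 with edgeR adjusted p values of 0.212, 0.212 and 0.319.

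No FGF or MAPK gene was called on Day 5. The 10 tested FGF receptors, ligands and adaptors had 7 positive and 3 negative fold changes, with a median of 0.22 and no gene at an unadjusted p below 0.05, and Fgfr1 was at 24.0 and 31.0 after FGF1 and 15.95 and 0 after vehicle. The 4 tested MAPK feedback genes had a median of 0.38, and the ETS factor Etv1 was at 21.3 and 18.8 against 6.65 and 0 (log2 fold change 1.63 ± 0.70, edgeR adjusted p = 0.801). The 2 tested immediate early genes had a median of 0.44. Cartpt was at 115 and 85.5 against 243 and 0, and the vehicle mice lay on either side of the FGF1 mice. Penk, the enkephalin precursor, was at 29.3 and 9.40 against 41.2 and 21.3 (-1.34 ± 0.54, edgeR adjusted p = 0.685).

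The remaining lists held no called gene on Day 5. Their medians were 0.17 for 16 ionotropic and 0.28 for 7 metabotropic glutamate receptors, 0.25 for 13 GABA receptors, 0.27 for 32 potassium channels, 0.17 for 23 sodium, calcium and HCN channels, 0.16 for 38 synaptic adhesion genes and 0.27 for 30 axon guidance genes. For 17 feeding and hormone receptors the median was 0.07, for 9 stress genes 0.22, for 11 heat shock and unfolded protein genes 0.17, for 10 clock genes 0.04 and for the 5 Agrp neuron genes 0.11. Slc17a6 was at 176 and 163 after FGF1 and 218 and 85.4 after vehicle, and overlapped. The medians of the identity lists were 0.17 for 2 glutamatergic, 0.32 for 2 GABA, 0.06 for 6 neuronal and 0.39 for 2 subtype genes, and the 9 posterior factors had 5 positive and 4 negative fold changes. Of the other cell lists, 4 astrocyte genes had a median of 0.45, 2 ependymal genes -0.22, 2 oligodendrocyte genes -0.07, 1 precursor gene 0.66, 2 microglial genes -0.44 and 1 vascular gene -0.60. The summed astrocyte list ran from 546 to 559 CPM in FGF1 mice and from 415 to 640.4 in vehicle mice.

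Whether the FGF1 effect in Glu5 differed between the days was tested in 1 fit over all 4 groups. No gene of 6865 was called by edgeR (percent called 0.0) or by DESeq2, and 178 (2.59%) had an unadjusted p below 0.05 in edgeR. The lowest p was that of Lhfp, with a Day 5 minus Day 1 effect of -2.53 ± 0.54 (edgeR adjusted p = 0.949). Lhfp was at 235 and 219 after FGF1 and 303 and 704 after vehicle on Day 5, above its Day 1 level in all 4 mice. Zmym1 had a difference of -2.76 ± 0.76, Nrxn3 of 1.58 ± 0.46, Kcnc2 of 1.46 ± 0.44 and Megf9 of 1.63 ± 0.53, each with an edgeR adjusted p of 1.0.

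Whether Glu5 neurons responded differently from Agrp neurons, which the study singles out among neurons, or from n29 neurons was tested for Day 1 with each mouse as a block. Of 4273 genes 35 differed in their FGF1 effect from that in Agrp neurons (percent called 0.819), 16 more positive (0.374%) and 19 more negative (0.445%) in Glu5. The potassium channel subunit Kcnq3 differed by -2.17 ± 0.35 (edgeR adjusted p = 0.000145). Kcnq3 overlapped in Glu5, at 349, 454 and 254 after FGF1 and 373, 373 and 492 after vehicle, and in Agrp neurons it was at 558, 817 and 763 against 155, 150.2 and 179.6. Ntng1 differed by 2.20 ± 0.43 (edgeR adjusted p = 0.00324), as its levels in Agrp neurons were 160.2, 134 and 50.9 against 399.96, 194 and 308, the direction opposite to that in Glu5. Of 34 synaptic adhesion genes tested 2 were called more positive in Glu5, with a median difference of 0.21 against 0.05 over all genes, and of 9 FGF genes and 4 MAPK feedback genes none was called. Among other lists, 1 of 5 metabotropic receptors was more positive. More negative were 1 of 13 GABA receptors, 1 of 4 markers of other neurons and 1 of 5 Agrp neuron genes. Of 19 potassium channels and of 12 neuropeptides, 1 each was more positive and 2 each more negative.

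Against n29 neurons 61 of 7729 genes differed (percent called 0.789), 37 more positive (0.479%) and 24 more negative (0.311%) in Glu5. In this fit edgeR took nearly all of each gene's variance from the trend over genes (median prior degrees of freedom 1872 against 4 residual). Its p values thus hardly measure the spread of a single gene between mice. Cntnap5c, a neuronal adhesion gene of the neurexin superfamily, differed by 1.65 ± 0.26 (edgeR adjusted p = 7.74e-07). In Glu5 it was at 217, 447 and 419 after FGF1 and 99.6, 138 and 203 after vehicle, without overlap, and in n29 neurons at 124, 147 and 148 against 198, 178 and 209. Kcnc2 differed by -1.21 ± 0.23, and in n29 neurons it overlapped between groups, at 429, 661 and 615 against 375, 513 and 414. Of 37 synaptic adhesion genes 6 were called more positive in Glu5 and none more negative, with a median difference of 0.17 against 0.02 over all genes. Of 10 FGF genes 1 was called, Fgf13, which was more positive in Glu5. None of 5 MAPK feedback genes was called. Other lists with calls went both ways. More positive in Glu5 were 2 of 30 axon guidance genes and 1 each of 7 metabotropic receptors, 17 neuropeptides and 5 Agrp neuron genes. More negative were 1 of 13 GABA receptors and 1 of 22 sodium, calcium and HCN channels. Of 33 potassium channels 1 went each way.

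Adamtsl1, a gene that leads cluster 3, was also called more positive in Glu5 than in n29 neurons, by 2.31 ± 0.48 (edgeR adjusted p = 0.001). It overlapped between groups in Glu5, at 46.6, 133 and 119.6 against 24.9, 22.9 and 139, and in n29 neurons, at 10.5, 10.00 and 28.3 against 25.1, 15.6 and 96.7. Cluster 3 held 7.65%, 31.2% and 23.1% of the nuclei of FGF1 mice 1, 2 and 3 and 0%, 4.26% and 6.38% of those of vehicle mice 1, 2 and 3. Whether this make-up took part in the difference was not tested. With 1 mouse left out, 16 (without vehicle 2) to 99 genes (without FGF1 mouse 1) differed from n29 neurons, and 10 (without FGF1 mouse 1) to 69 (without vehicle 3) from Agrp neurons. Without vehicle 1 these counts were 43 and 29.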

How the data were processed

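Nuclei were captured with the 10x Chromium 3' system, and the authors aligned the reads to GRCm38 with introns included, using Cell Ranger 1.2. The authors deposited whole-number UMI counts per gene and nucleus, which are used here, and a metadata table with sample, batch number, cell type and, as a fraction from 0 to 1, the confidence of the first projected label (median 0.294 in Glu5). In Glu5 nuclei that first label was most often n30.Nr5a1/Nfib (435 nuclei) or n29.Nr5a1/Adcyap1 (354), the n29 class compared above. The value is therefore not a confidence of the label Glu5. Cell types were given by label projection from earlier studies in Seurat and by marker genes of the clusters. The authors left out doublet calling for nuclei and none was run here, and 315 Glu5 nuclei with 3 or more UMIs of a glial, vascular or GABA marker list were left out in an alternative. All deposited barcodes were used, and no Glu5 nucleus exceeded the 5% that the authors allowed for mitochondrial or for ribosomal reads.

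Counts were summed per mouse over Glu5 nuclei (10 to 375 nuclei and 40175 to 1064296 UMIs a mouse) and tested with edgeR 4.0.16 (R 4.3.3) by the quasi-likelihood F test with TMM scaling, filterByExpr and Benjamini-Hochberg adjustment over all genes tested, at a threshold of 0.05. DESeq2 1.42.0 was an alternative. Each label names 1 mouse as a sample, so replicates are mice. Whether counting used strand is not given in the sources used here, so overlapping genes are uncertain. Clusters were found with leidenalg 0.10.2. The test was also run on counts simulated from its own fitted model. For Day 1 it called 6 of 60 genes changed by 1 log2 unit and 46 of 50 changed by 2. It also called 8 of 3272 unchanged genes. The simulation held no outlying mouse and no shift in cluster make-up, so it does not speak to those. Each gene's spread was drawn from the trend over genes, so no gene had a spread of its own. Its call rates may therefore not hold for the data. Positions are from GENCODE and promoters from RefSeq GRCm38.p6.

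Named were all called genes, the 5 of lowest p in a direction with fewer than 5 called, up to 4 of lowest p per list, and 15 genes by ratio to other types. Some genes that this rule names are not reported here. Genes of the 2 comparisons between types (the 5 of lowest p each way) and the cluster genes were chosen after their values were seen, and so were Fth1 and Cox8a on Day 1. The members, lists and tests were chosen with earlier results of these data known.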

Additional observations from a re-analysis of the deposited data

Results flagged for a closer look

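Differences in the Day 1 FGF1 effect between Glu5 and another neuron type were picked out because the difference itself passed edgeR's quasi-likelihood test, with each mouse as a block. Both types come from the same 6 libraries. The variance of a gene rested mostly on the trend over genes, with median prior degrees of freedom of 51.4 (Agrp) and 1872 (n29) against 4 residual. Against Agrp neurons, of which 15 to 96 nuclei per mouse were summed, 35 genes passed. The 5 of lowest p that were more positive in Glu5 were Kcnip4, a potassium channel partner (difference of log2 fold changes 1.81), Ntng1 (2.20), Kctd16, a GABA-B receptor auxiliary subunit (1.74), Tmeff2 (1.73) and the adhesion molecule Alcam (1.90). In Glu5 alone Kcnip4 had a log2 fold change of 0.47 and in Agrp neurons -1.31. Those more negative in Glu5 were Sst (-4.05), Kcnq3 (-2.17), the adhesion molecule Sdk1 (-2.02), Lcorl (-1.92) and Wbscr17 (-1.83). For Sst, 36 UMIs of Glu5 in vehicle 1 came from 1 nucleus.

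Against n29 neurons 61 genes passed. Those more positive in Glu5 were Gm28905 (1.97), Kctd16 (1.30), Cntnap5c (1.65), 9530026P05Rik (1.77) and the contactin Cntn5 (1.09). Kctd16 was at 1002, 1797 and 1589.8 CPM in Glu5 after FGF1 and 373, 579 and 1134 after vehicle, and at 158, 314 and 297 against 309.8, 240.1 and 326 in n29 neurons. The groups overlapped in both types. Those more negative were Kcnc2 (-1.21), Csmd2 (-1.31), Nwd2 (-2.41), 4930555F03Rik (-1.05) and Rab36 (-2.04). For 9530026P05Rik and Csmd2 the log2 fold change was -0.19 and -0.21 in Glu5, and -1.88 and 1.10 in n29 neurons. Of the genes named in these 2 comparisons, Kcnip4, Kctd16, Tmeff2, Lcorl, Gm28905, 9530026P05Rik, Cntn5, Csmd2, Nwd2 and 4930555F03Rik overlap other annotated genes on their strand and could share reads with them.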

How the results depend on the processing

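The Day 1 count of 0 was the same with RLE scaling, 1 fit over 4 groups, thinning, without nuclei carrying other markers, with the batch block and with cluster 1 alone. It was 24 without the low-count filter, 1 with DESeq2 and 0 to 15 with a replicate left out (15 without FGF1 mouse 1, 1 without FGF1 mouse 2). With the replicate block it was 0, and the numbers did not pair mice (r of the same-numbered pairs -0.06, -0.25 and 0.23). The 26 calls of Day 5 became 51 without the filter, 1 with DESeq2, 0 with 1 fit over 4 groups, 0 with the batch block (added after seeing the data), 16 without nuclei carrying other markers, 21 with cluster 1 alone (added after seeing the data), and 8 to 133 with a mouse left out (8 without FGF1 mouse 45, 64 without vehicle 28, of which 49 were higher, and 133 without vehicle 38). Each of those Day 5 fits with a mouse left out had 1 mouse in 1 group, whose spread it could not measure. The count for the difference between days was 7 without the filter and 0 in the other settings tried. The 35 differences from Agrp neurons became 9 without the filter and ranged from 10 to 69 (10 without FGF1 mouse 1, 13 without FGF1 mouse 2, 14 without vehicle 2, 69 without vehicle 3), and the 61 from n29 neurons became 39 and ranged from 16 to 99 (16 without vehicle 2, 28 without FGF1 mouse 3, 35 without FGF1 mouse 2, 99 without FGF1 mouse 1). The Day 5 share difference of 0.816 points turned to -0.293 without FGF1 mouse 45 and -1.90 without vehicle 38, in a range of -1.90 to 3.53, and that of Day 1, 4.10 points, ranged from 2.80 to 5.65.

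With a mouse left out the Day 5 log2 fold change ranged from -1.998 to 0.41 for Ckb, -3.06 to 0.35 for Cox6a1, -4.28 to 6.32 for Cox8a, -2.32 to 0.022 for Ly6h, -2.37 to 0.97 for Sncb, -2.47 to 0.38 for Sst, -1.33 to 8.59 for Cartpt and -0.37 to 1.22 for Slc17a6, and the difference between days from -7.42 to 0.36 for Mrpl57, each positive without vehicle 28. Slc17a6 on Day 5 was 0.089 with DESeq2 and 0.032 with the batch block, Sst was 0.26 without nuclei carrying other markers, and Sim1 on Day 1 was -0.15 when thinned. The cause of these changes was not tested beyond the settings themselves. Vehicle 1 and vehicle 38, of 10 and 11 nuclei, limit what can be seen of genes under 74.7 CPM.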
